A study of Mus musculus with 15 samples.

Results

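The sterol and fatty acid synthesis genes described here are 30 genes chosen by name, of 28269 genes in the series: 22 cover the route from acetyl-CoA to cholesterol with its sensing and transport, and 8 cover the making of fatty acids. Every gene whose symbol equals a member's was taken from every table that lists it. Of the 30, 11 were listed in wild type, 9 in E-OEX and all 30 in U-OEx. Pmvk, Mvd, Sqle, Scd1 and Scd2 are the 5 members with values in every group. Acat2, Dhcr7, Insig1, Me1, Acaca and Fasn were analysed in wild type and U-OEx, and Cyp51, Msmo1, Srebf2 and Elovl6 in E-OEX and U-OEx. The other 15 members (Hmgcs1, Mvk, Idi1, Fdps, Fdft1, Lss, Tm7sf2, Nsdhl, Hsd17b7, Ebp, Sc5d, Srebf1, Stard4, Acly and Acss2) were analysed in U-OEx alone.

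The study sequenced RNA from mouse uterine epithelium on day 4, with 3 libraries in each of 5 groups. Wild-type (WT) animals, titled as controls, and animals labelled as overexpressing the receptor gene Notch1 gave luminal epithelium (LE), the cell layer facing the uterine lumen, and glandular epithelium (GE), the cells of the uterine glands. The overexpressing animals are divided by name into E-OEX, with LE and GE, and U-OEx, with LE alone, so the groups are WT LE, WT GE, E-OEX LE, E-OEX GE and U-OEx LE. What E and U stand for, how overexpression was brought about (a promoter or Cre), what day 4 is counted from, the strain and the age are not given in the sources used here. Notch1 itself was analysed only in U-OEx and so could not check the genotype labels.

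All values are scaled read counts, that is, a gene's reads divided by 1 factor per library. The WT and E-OEX tables hold only genes whose group means differ between GE and LE by a log2 ratio of about 1.0 or more in that genotype, so a member enters them because it differed between the epithelia. The same libraries serve in the comparisons between genotypes, so the p-values of members there are not independent of this selection. Tests used log2(value + 1), with genes whose mean was at least 1, and between genotypes the reads of the shared genes were first rescaled together. Summed over listed genes, a WT library held between 3818041 and 4797424 reads, an E-OEX library between 1980800 and 3494859 and a U-OEx library between 13541644 and 14981505. Of the marker lists, the 7 epithelial markers (among them Epcam and Cdh1) were all present in U-OEx LE, and 4 and 3 of them were listed in the WT and E-OEX tables. The 6 luminal markers summed to between 64687 and 110380 in WT LE libraries and to between 5409 and 7960 in U-OEx LE, where Slc5a11 was at or under 1 read. The GE libraries held stromal markers as well, with sums from 34363 to 101130 over 8 listed genes in WT GE and from 80284 to 96299 over 10 in E-OEX GE. In such bulk samples fewer cells of a type and less RNA per cell cannot be told apart.

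Cholesterol is built in the cytosol and endoplasmic reticulum from acetyl-CoA, through mevalonate, isoprenoid diphosphates, squalene and lanosterol, and fatty acids are built from the same acetyl-CoA with NADPH as reductant. The membrane-bound SREBP transcription factors, encoded by Srebf1 and Srebf2, switch on most of these genes when sterols are scarce, and the INSIG proteins hold them back when sterols are plentiful. In the uterine epithelium these lipids serve membranes and droplets.

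RefSeq promoters (GRCm38.p6, 250 bases before to 50 after each start, 300 in all) were found for 24 of the 30 members. The 4 stretches below are shown because Mvd and Pmvk encode consecutive enzymes whose values differed in opposite directions, Insig1 is the sterol sensor with a value in 3 groups, and Hmgcs1 is the only member whose window holds the sterol regulatory element searched for. They are written 5′ to 3′ on the gene's strand. Capitals mark matches, on either strand, to the sterol regulatory element, spelled TCACNCCAC here, to the E-box, which reads CACGTG, to the CCAAT box and to the GC box, which reads GGGCGG. They lie at chr8:122443423-122443622 (minus strand, Mvd), chr3:89454341-89454540 (plus strand, Pmvk), chr5:28071162-28071361 (plus strand, Insig1) and chr13:119690151-119690350 (plus strand, Hmgcs1).
Mvd: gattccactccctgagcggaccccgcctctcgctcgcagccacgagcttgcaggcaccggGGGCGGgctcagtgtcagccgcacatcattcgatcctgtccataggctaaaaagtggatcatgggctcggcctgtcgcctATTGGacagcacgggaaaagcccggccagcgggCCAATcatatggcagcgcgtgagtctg
Pmvk: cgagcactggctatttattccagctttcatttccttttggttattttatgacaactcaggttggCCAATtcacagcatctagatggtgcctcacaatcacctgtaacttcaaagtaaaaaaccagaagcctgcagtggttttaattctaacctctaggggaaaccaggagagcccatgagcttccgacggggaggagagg
Insig1: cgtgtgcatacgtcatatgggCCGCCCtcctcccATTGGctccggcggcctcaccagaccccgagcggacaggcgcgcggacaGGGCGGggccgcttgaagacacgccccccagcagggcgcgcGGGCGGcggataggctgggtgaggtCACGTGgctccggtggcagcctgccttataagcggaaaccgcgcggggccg
Hmgcs1: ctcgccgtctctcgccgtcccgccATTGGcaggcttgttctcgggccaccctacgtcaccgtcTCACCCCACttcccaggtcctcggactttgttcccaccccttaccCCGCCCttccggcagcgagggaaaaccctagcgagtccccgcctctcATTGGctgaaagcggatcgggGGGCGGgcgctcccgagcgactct
The sterol regulatory element was present in 1 of the 24 members (4.2%) and in 1.44% of the 27025 genes with a promoter entry. The E-box was present in 4 members (16.7%, Dhcr7, Hsd17b7, Insig1 and Sc5d) and in 8.09% of all genes. The CCAAT box was present in 21 members (87.5%) and in 41.1% of all genes, and the GC box in 20 members (83.3%) and in 38.2% of all genes. Pmvk held a CCAAT box 136 bases before its start and no GC box, whereas Mvd held 1 GC box and a CCAAT box on each strand. TGGGAA, the core sequence that the Notch partner RBPJ binds, was present in 6 members (25.0%, Acaca, Hmgcs1, Mvk, Nsdhl, Sc5d and Srebf1) and in 28.3% of all genes. A CCAAT box and a TGGGAA match overlapped in 3 places, in Mvk and Nsdhl. Such matches are descriptions of these windows only.

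The first comparison asked how the members differed between E-OEX LE and WT LE. Sqle and Mvd were higher in E-OEX LE, Pmvk was lower, and Scd1 and Scd2 did not pass the test. Thus 3 of the 5 members tested passed (2 higher, 1 lower; limma, Benjamini-Hochberg adjusted p under 0.05), where 10.7% of the 2600 genes tested passed, 5.12% higher and 5.54% lower. The members' median log2 fold change was 0.08, beside -0.09 over all genes. Mvd and Sqle were listed in WT with their lower mean in LE and in E-OEX with their higher mean in LE. Selection by these same libraries thus favours higher values in E-OEX LE for both genes. Pmvk, Scd1 and Scd2 were listed with their higher mean in LE in both genotypes. The p-values below are not independent of this selection.

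Sqle (ENSMUSG00000022351, chromosome 15, 59315077 to 59331192, plus strand) encodes squalene epoxidase, which adds oxygen to squalene and is a control point of the route. Its scaled counts were 54.9, 54.3 and 40.2 in WT LE replicates 1 to 3 and 1064, 1209.8 and 346 in E-OEX LE. Every E-OEX LE library lay above every WT LE library, although E-OEX LE replicate 3 was well below the other two. With reads of both genotypes rescaled together the mean was 15.6 times that of WT LE, and the difference on the log2 scale was 3.76 (SE 0.57, limma adjusted p = 0.00489). It passed in each of the 16 alternatives run, with log2 values between 3.37 and 4.48.

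Mvd (ENSMUSG00000006517, chromosome 8, 122433601 to 122443422, minus strand), whose promoter is shown above, encodes the decarboxylase that ends the mevalonate steps by making isopentenyl diphosphate. Its values were 129, 145 and 95 in WT LE and 956, 491 and 275 in E-OEX LE. The groups did not overlap, and the E-OEX LE libraries spread more than 3 times between lowest and highest. Its difference was 1.88 on the log2 scale (SE 0.52), with an adjusted p of 0.048 in limma. On the deposited scale 58.6% of the called genes were higher in E-OEX LE, against 48% after rescaling. The call did not hold without WT LE replicate 1, 2 or 3 (adjusted p = 0.0622, 0.094 and 0.206) or without E-OEX LE replicate 1 or 2 (0.158 and 0.148), nor with a pseudocount of 0.1 (0.0528), no filter on low values (0.0856) or quantile normalization (0.0525).

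Pmvk (ENSMUSG00000027952, chromosome 3, 89454541 to 89469013, plus strand) encodes phosphomevalonate kinase, which acts directly before the Mvd enzyme. Its values were 1627, 7634 and 5297 in WT LE and 668, 610.3 and 951 in E-OEX LE. All E-OEX LE libraries were lower than all WT LE libraries, of which replicate 1 was by far the lowest. Pmvk thus differed by -2.64 on the log2 scale (SE 0.55, adjusted p = 0.0184 in limma). The adjusted p was 0.0595 without WT LE replicate 2, 0.0984 without WT LE replicate 3, 0.0802 and 0.073 without E-OEX LE replicates 1 and 2, and 0.068 with no filter.

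The stearoyl-CoA desaturases, which put the first double bond into newly made fatty acids, are neighbours on chromosome 19. Scd1 (ENSMUSG00000037071, 44394455 to 44407879, minus strand) was 698, 658 and 577 in WT LE and 914, 689 and 318 in E-OEX LE, with a log2 fold change of -0.31 (95% interval -1.37 to 0.76, limma adjusted p = 0.722). Scd2 (ENSMUSG00000025203, 44293674 to 44306864, plus strand) was 36429.5, 15892 and 27155 in WT LE and 24842, 32562 and 33137 in E-OEX LE, with a log2 fold change of 0.08 (95% interval -0.999 to 1.17, adjusted p = 0.932). Both genes overlapped between the groups, so 3 of 5 members were without overlap, where 29.9% of all genes tested were. Beside these values, the gland markers (7 of 9 shared) summed to between 49.7 and 102 in WT LE and to between 215 and 1321 in E-OEX LE, where Spink1 and Calca were at 0. The E-OEX LE sums were 1321, 215 and 291 in replicates 1 to 3. Of the 7 gland markers tested, 5 had a positive log2 fold change, 1 passed as higher in limma and 0 as lower. Their median log2 fold change was 1.41. The luminal markers (5 of 6) summed to between 34769 and 63088 in WT LE and between 13829 and 21380 in E-OEX LE, with a median log2 fold change of -2.41, and Calb1 and Lpar3 passed as lower in limma. The stromal markers (8 of 10) summed to between 369 and 7741 in WT LE and between 521 and 2429 in E-OEX LE, with a median of -1.39 and Postn alone higher. The part of these cells in the result was not tested.

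**Figure D1:**
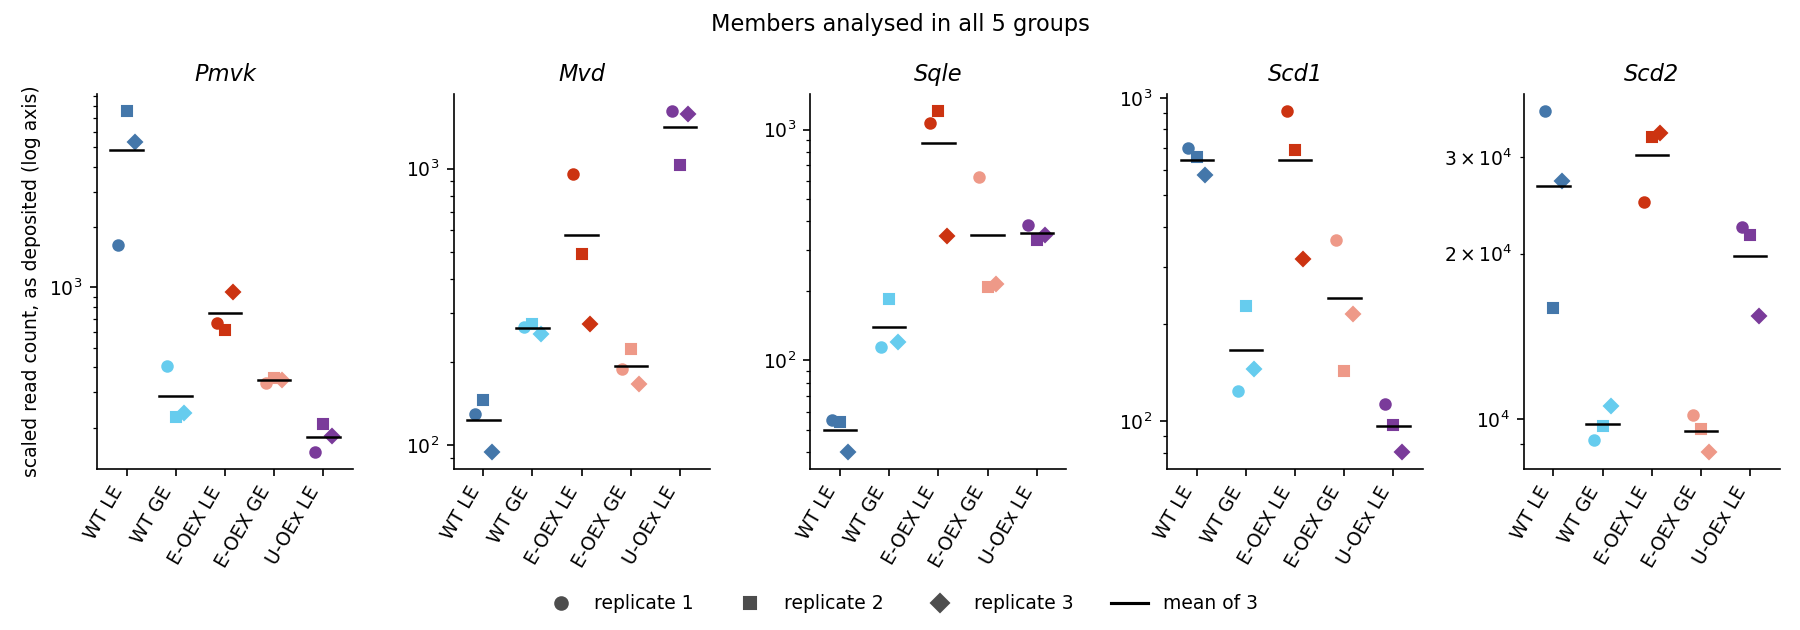
Scaled read counts as deposited (log axes, 1 panel per gene) of the 5 members analysed in every group; each symbol is a library, its shape gives the replicate number, and the bar is the mean of 3. Sqle and Mvd are higher in E-OEX LE and U-OEx LE than in WT LE without overlap, Pmvk is lower in both, and Scd1 is lower in U-OEx LE.

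The same 5 members were compared between E-OEX GE and WT GE. Mvd was lower in E-OEX GE and the other members did not pass, so that 0 members were higher and 1 was lower, where 23.5% of the 2851 genes tested passed (9.72% higher, 13.8% lower). At an unadjusted p under 0.05 there were 0 higher and 2 lower in limma, beside 1008 of the 2851 genes in either direction. edgeR and DESeq2 each called 0 higher and 1 lower, and over all alternatives between 285 and 789 genes were called. The members' median log2 fold change was -0.16 and that of all genes 0.05. Mvd and Sqle were listed with their higher mean in GE in WT and in LE in E-OEX. That selection favours lower values in E-OEX GE for both genes, and the p-values here are not independent of it.

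Mvd was 269, 274 and 253 in WT GE and 189, 223 and 167 in E-OEX GE, with no overlap. It differed by -0.93 on the log2 scale (SE 0.26, adjusted p = 0.0296 in limma). The scale matters for this gene: on the deposited scale the log2 fold change was -0.47 (adjusted p = 0.188), and there the median of all genes was 0.50 and 71.6% of the called genes were higher, against 41.3% after rescaling. The call was also lost without WT GE replicate 1, 2 or 3 (adjusted p = 0.168, 0.0695 and 0.0836), without E-OEX GE replicate 3 (0.0887) and in 1 fit over all 5 groups (0.288).

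Sqle was 114, 185 and 120.3 in WT GE and 622, 208 and 214 in E-OEX GE. On the shared scale these became 142, 213 and 147 against 594, 185 and 168, so only E-OEX GE replicate 1 stood above WT GE. The log2 fold change was 0.68 (95% interval -0.35 to 1.71, limma adjusted p = 0.339). Pmvk was 406, 226 and 235 in WT GE and 334, 352 and 345 in E-OEX GE, with a log2 fold change of -0.16 (95% interval -0.83 to 0.51, adjusted p = 0.759). It overlapped between the genotypes.

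Scd1 was 125, 227 and 145 in WT GE and 364, 144 and 215 in E-OEX GE, and its log2 fold change was 0.02 (95% interval -0.86 to 0.90, limma adjusted p = 0.978). Scd2 was 9139, 9719.5 and 10538 in WT GE and 10162, 9572 and 8712 in E-OEX GE, overlapping as deposited. After rescaling its groups no longer overlapped, with a log2 fold change of -0.51 (95% interval -1.02 to -0.01, adjusted p = 0.136). That made 2 of 5 members without overlap, where 40.5% of all genes tested were. The smooth muscle markers (5 of 6 shared) summed to between 2734 and 4878 in WT GE and between 14150 and 17496 in E-OEX GE, and the gland markers (7 of 9) to between 23799 and 32026 and between 5886 and 9168. The epithelial markers (3 of 7) summed to between 11431 and 12389 in WT GE and between 15696 and 20910 in E-OEX GE. Of these, 1 passed as higher and 0 as lower in limma, with a median log2 fold change of -0.32. Plin4, the only adipocyte marker shared, was at between 9.73 and 27.5 in WT GE and between 62.1 and 78.7 in E-OEX GE. It passed as higher in limma. Whether these cells bear on the members was not tested.

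Whether the GE against LE difference was the same in both genotypes was tested as an interaction, which needs no scale shared between the genotypes. Because both tables list genes by this same difference, with a log2 ratio of about 1.0 or more in each, a listed gene whose direction differs between the genotypes has an interaction of about 2 or more by that selection alone, and the p-values given here are not independent of it. Mvd, Sqle and Pmvk passed, 3 of 5 members (1 higher and 2 lower), where 10.7% of the 2933 genes passed (5.83% higher, 4.91% lower). In WT the mean of Mvd was 123 ± 25.8 (SD, n = 3) in LE and 265 ± 10.6 in GE, a log2 difference of 1.12. In E-OEX it was 574 ± 348 in LE and 193 ± 28.3 in GE, a log2 difference of -1.40. The higher mean of Mvd was thus in the glands in WT and in the lumen in E-OEX, with an interaction of -2.52 (SE 0.60, limma adjusted p = 0.0166). The E-OEX difference itself did not pass when any library other than E-OEX LE replicate 3 was left out (adjusted p between 0.0538 and 0.0856), and the WT difference was 0.47 in DESeq2 (adjusted p = 0.0905).

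Sqle went the same way. Its mean was 49.8 ± 8.29 in WT LE and 139.7 ± 39.3 in WT GE, a log2 difference of 1.45, and 874 ± 462 in E-OEX LE and 348 ± 237 in E-OEX GE, a difference of -1.33 that did not pass by itself (adjusted p = 0.0664). The interaction was -2.78 (SE 0.76, limma adjusted p = 0.0339). The adjusted p of Sqle lay between 0.0619 and 0.0895 when any of 8 libraries was left out (WT LE 3, WT GE 1, 2 and 3, E-OEX LE 1 and 2, E-OEX GE 2 and 3), and it was 0.0877 with quantile normalization.

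Pmvk was higher in the lumen in both genotypes, with a smaller difference in E-OEX. Its mean fell from 4853 ± 3028 in WT LE to 289 ± 101 in WT GE, a log2 difference of -3.85, and from 743 ± 182 in E-OEX LE to 344 ± 8.70 in E-OEX GE, a difference of -1.08. The interaction was 2.77 (SE 0.68, limma adjusted p = 0.0206). The adjusted p of Pmvk was 0.0644, 0.0564 and 0.0599 without WT LE replicate 3, WT GE replicate 2 and WT GE replicate 3, 0.0674 with quantile normalization and 0.0582 with reads rescaled by TMM. That of Mvd was 0.0525 without WT LE replicate 3. Scd1 (0.61, 95% interval -0.76 to 1.99) and Scd2 (-0.30, 95% interval -1.19 to 0.58) did not pass, but Scd2 passed with quantile normalization (-1.91, adjusted p = 0.0306). The GE minus LE difference pointed in opposite directions in the genotypes for 2 of 5 members (40%), and for 106 of the 2933 genes (3.61%).

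U-OEx LE was then compared with WT LE, over the 11 members both tables list. This comparison shares the WT LE libraries with that of E-OEX LE, so the values of both stand side by side and are not independent of each other. Mvd, Sqle, Me1 and Insig1 were higher in U-OEx LE, and Pmvk, Dhcr7, Acaca and Scd1 were lower. The first 4 were listed in WT with their lower mean in LE, and the other 4 with their higher mean in LE. Each call thus has the direction that selection by these WT LE libraries favours, and the p-values are not independent of it. The 8 that passed (4 higher, 4 lower) stand beside 56.9% of the 5949 genes tested (29.1% higher, 27.8% lower). The members' median log2 fold change was -0.38, and that of all genes was 0.09.

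In the mevalonate steps, Mvd was 1623, 1034 and 1577 in U-OEx LE, and every library was above all WT LE libraries. It rose by 3.48 on the log2 scale (SE 0.30, adjusted p = 5.59e-05 in limma), where the value for E-OEX LE was 1.88. Pmvk was 152, 208 and 182 in U-OEx LE, below all WT LE libraries, a difference of -4.51 (SE 0.48, adjusted p = 0.000132), where the value for E-OEX LE was -2.64. Acat2 (ENSMUSG00000023832), the cytosolic thiolase that joins acetyl-CoA units, was 191, 244 and 333 in WT LE and 238, 252 and 224 in U-OEx LE, a log2 fold change of -0.09 (95% interval -0.72 to 0.54, adjusted p = 0.796). Its groups overlapped.

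In the later sterol steps, Sqle was 385, 331 and 351 in U-OEx LE, again above every WT LE library and with little spread. It rose by 2.80 on the log2 scale (SE 0.30, adjusted p = 0.000144 in limma), where the value for E-OEX LE was 3.76. Dhcr7 (ENSMUSG00000058454, chromosome 7, 143823145 to 143848410, plus strand), the reductase that makes cholesterol from its direct precursor, was 1528, 1584 and 1265 in WT LE and 293, 356 and 248 in U-OEx LE. The groups were far apart, with a log2 fold change of -2.31 (SE 0.25, adjusted p = 0.000139). The genes of squalene epoxidation and of the last reduction thus differed in opposite directions between these groups.

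Insig1 (ENSMUSG00000045294, chromosome 5, 28071363 to 28078662, plus strand), whose protein retains SREBP in the endoplasmic reticulum and which is itself an SREBP target, was 140, 96.3 and 116 in WT LE and 214, 205 and 241 in U-OEx LE. The groups did not overlap. It rose by 0.89 on the log2 scale (SE 0.31, adjusted p = 0.0361 in limma). This call did not hold without WT LE replicate 2 or 3 (adjusted p = 0.0638 and 0.0876), without U-OEx LE replicate 1 or 3 (0.0569 and 0.0661), with DESeq2 size factors (0.0539) or with quantile normalization (log2 fold change 0.41, adjusted p = 0.257).

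Of the 5 fatty acid genes in this comparison, Me1 (ENSMUSG00000032418, chromosome 9, 86581371 to 86695953, minus strand), the cytosolic malic enzyme that supplies NADPH, was 72.5, 270.4 and 118 in WT LE and 1225, 988 and 923 in U-OEx LE. It rose by 2.94 on the log2 scale (SE 0.42, limma adjusted p = 0.00064), without overlap. Acaca (ENSMUSG00000020532, chromosome 11, 84129672 to 84401651, plus strand), the acetyl-CoA carboxylase that commits carbon to fatty acids, was 4379.7, 3247 and 4297 in WT LE and 576, 563 and 457 in U-OEx LE. All U-OEx LE libraries were far below WT LE, a log2 fold change of -2.92 (SE 0.24, adjusted p = 4.44e-05).

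Scd1 was 113, 97.8 and 80.7 in U-OEx LE, below every WT LE library, and differed by -2.75 on the log2 scale (SE 0.28, adjusted p = 0.000101 in limma). Its neighbour Scd2 was 22309, 21656 and 15368, within the WT LE range but for 1 library, and did not pass (-0.38, 95% interval -1.20 to 0.43, adjusted p = 0.382). Fasn (ENSMUSG00000025153), the fatty acid synthase, was 7503, 19229.7 and 12478 in WT LE and 9976, 8935 and 7386 in U-OEx LE (-0.51, 95% interval -1.21 to 0.20, adjusted p = 0.187). Quantile normalization turned the sign of both, to 0.88 for Scd2 (adjusted p = 0.0216) and 0.66 for Fasn (0.105), and without WT LE replicate 1 Fasn passed at -0.79 (0.0308).

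The 8 members that passed were also the 8 of 11 without overlap, where 63.8% of all genes tested were without overlap. The 7 other than Insig1 passed in every alternative in which they were tested. In the same libraries the immune markers (4 of 8 shared) summed to between 782 and 1437 in WT LE and between 3188 and 5490 in U-OEx LE, and the gland markers (8 of 9) to between 49.7 and 112 and between 1040 and 1441, with 4 of the 7 tested higher and 1 lower, Spink1, which with Prss29 and Ttr was at 0 in U-OEx LE. Of the stromal markers 8 were tested, with a median log2 fold change of -1.33. Postn alone was higher, at 0, 20.48 and 15.6 in WT LE and 11229, 20833 and 6027 in U-OEx LE, and the other 7 had lower means. The sums of the luminal markers, given above, were lower in each U-OEx LE library. The epithelial markers (4 of 7 shared) summed to between 57529 and 64975 in WT LE and between 32871 and 46781 in U-OEx LE. Of these 4, 3 passed as lower, and their median log2 fold change was -0.87. The adipocyte list was represented by Plin4 alone, at between 2.24 and 7.17 in WT LE and between 24.8 and 25.9 in U-OEx LE. Their part in the members' values was not tested.

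**Figure D2:**
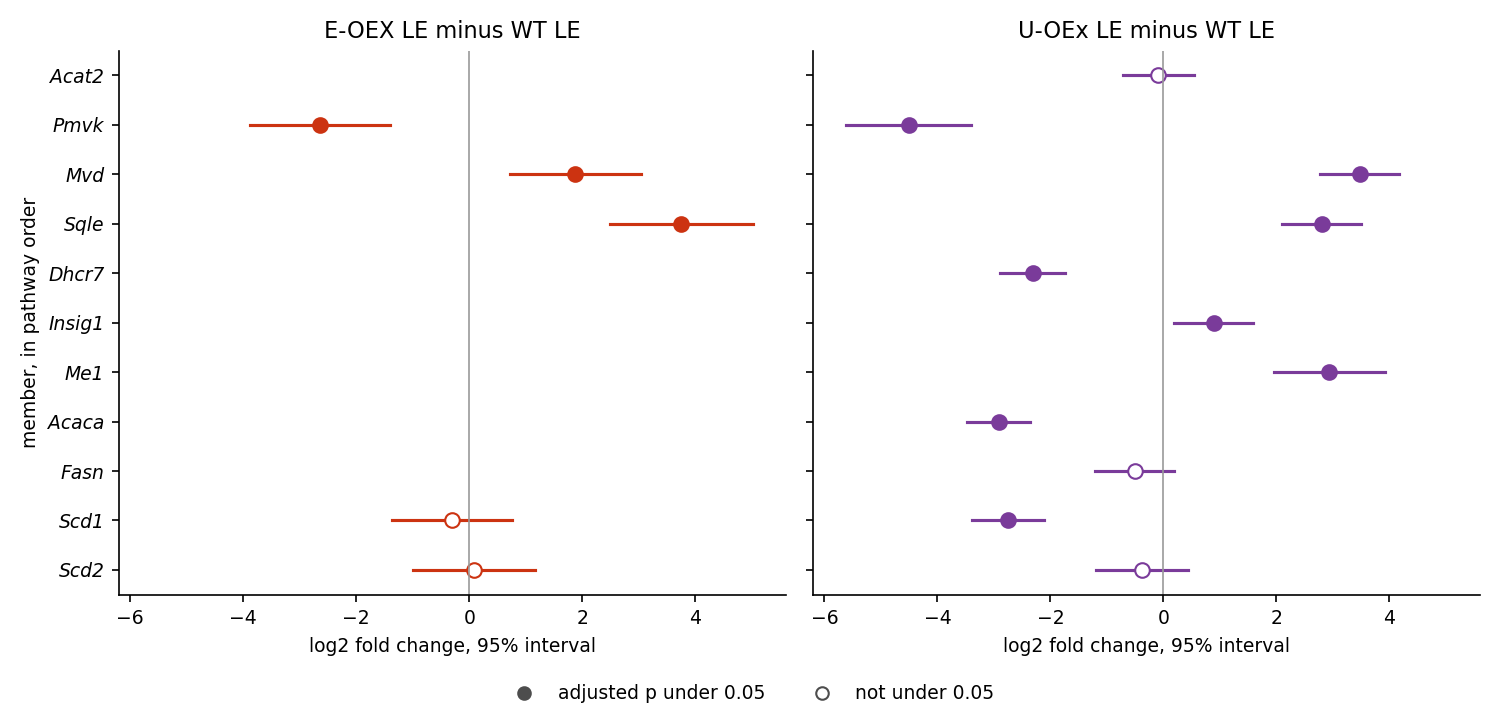
Log2 fold changes (points) with 95% intervals (lines) of the members in E-OEX LE minus WT LE (left, 5 members) and U-OEx LE minus WT LE (right, 11 members), in pathway order; filled points have a limma adjusted p under 0.05. Both panels use the same WT LE libraries. Mvd and Sqle lie right of 0 and Pmvk left of 0 in both, and Dhcr7, Acaca and Scd1 lie left of 0 in U-OEx LE.

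The 2 overexpressing lumens were compared directly over 9 members. All 9 were listed in E-OEX with their higher mean in E-OEX LE, by the same libraries that are compared here. The directions and p-values below are therefore not independent of that selection, which favours lower values in U-OEx LE. Pmvk, Scd1 and Elovl6 were lower in U-OEx LE than in E-OEX LE and no member was higher, where 15% of the 4275 genes tested passed (6.97% higher, 8.05% lower). At an unadjusted p under 0.05 there were 1 higher and 5 lower in limma, beside 1419 of the 4275 genes in either direction. edgeR called 0 higher and 3 lower, and DESeq2 called 0 higher and 4 lower. DESeq2 called 935 genes in all, the most of any alternative. The members' median log2 fold change was -0.86, and that of all genes was 0.06.

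Pmvk differed by -2.15 on the log2 scale (SE 0.34, limma adjusted p = 0.0079) and Scd1 by -2.73 (SE 0.44, adjusted p = 0.00846), each without overlap. Elovl6 (ENSMUSG00000041220, chromosome 3, 129532355 to 129638495, plus strand), which lengthens palmitate to stearate and so feeds the Scd enzymes, was 762, 1375 and 461 in E-OEX LE and 221, 245 and 181 in U-OEx LE. Every U-OEx LE library was lower, a difference of -2.0 (SE 0.46, adjusted p = 0.0252). Without U-OEx LE replicate 1 none of the 3 passed (adjusted p = 0.0625 for Pmvk, 0.0544 for Scd1 and 0.106 for Elovl6). Pmvk was also lost without U-OEx LE replicate 3 (0.0525), and Elovl6 without U-OEx LE replicate 2 or 3 (0.0554 and 0.102) or with no filter (0.06).

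Srebf2 (ENSMUSG00000022463, chromosome 15, 82147181 to 82205379, plus strand), which encodes the SREBP that chiefly drives sterol genes, was 3672, 3713 and 2503 in E-OEX LE and 2352, 1859 and 1724 in U-OEx LE. It did not overlap and did not pass (-0.86, 95% interval -1.58 to -0.14, limma adjusted p = 0.0972). Mvd (1.32, 95% interval 0.32 to 2.32, adjusted p = 0.0761) and Sqle (-1.24, 95% interval -2.34 to -0.13, adjusted p = 0.114) leaned in opposite directions without passing. Mvd passed without E-OEX LE replicate 1 (1.69, adjusted p = 0.0207) and in 1 fit over all 5 groups (1.55, 0.0195), and Sqle without E-OEX LE replicate 3 (-1.80, 0.0209) and with DESeq2 (-1.44, 0.0322).

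Cyp51 (ENSMUSG00000001467), which removes a methyl group from lanosterol, was 2253, 1261 and 561 in E-OEX LE and 1215, 1077 and 735 in U-OEx LE (-0.38, 95% interval -1.48 to 0.73, limma adjusted p = 0.636). Msmo1 (ENSMUSG00000031604), the oxidase of the next methyl groups, was 681, 620.3 and 219 against 302, 289.7 and 303 (-0.73, 95% interval -1.76 to 0.30, adjusted p = 0.298), and passed without E-OEX LE replicate 3 (-1.24, adjusted p = 0.0423). Both genes spread widely over the E-OEX LE libraries and overlapped between the groups. Scd2 was lower in every U-OEx LE library without passing (-0.75, 95% interval -1.51 to 0.01, adjusted p = 0.153). In all, 6 of 9 members were without overlap, where 38.2% of all genes tested were. The luminal markers (5 of 6) summed to between 13829 and 21380 in E-OEX LE and between 5399 and 7952 in U-OEx LE, and the immune markers (2 of 8) to between 232 and 437 and between 839 and 1600. The 10 stromal markers had a median log2 fold change of -0.52, and only Postn passed, at 421, 127 and 126 in E-OEX LE. The part of these cells was not tested.

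Within a genotype, GE against LE is a description, because the tables list genes that differ in this way. In WT, 5 members were higher in GE (Acat2, Mvd, Sqle, Insig1 and Me1) and 6 higher in LE (Pmvk, Dhcr7, Acaca, Fasn, Scd1 and Scd2), so that 54.5% of the 11 members and 43% of the 6414 listed genes had their higher mean in LE. All 11 passed in limma and were without overlap, as were 97% (56.6% higher in GE, 40.5% lower) and 95.9% of the listed genes. The fatty acid genes other than Me1 were all on the luminal side. Acaca was 1201, 1372 and 1291 in WT GE, and Fasn was 4646, 5615 and 6113, both below WT LE. The epithelial markers (4 of 7 listed) were lower in GE too, with a median log2 difference of -1.85. They summed to between 57529 and 64975 in WT LE and between 16935 and 18203 in WT GE. Whether epithelial content bears on the members was not tested.

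Dhcr7 was 284, 323 and 271 in WT GE, a log2 difference of -2.31 from WT LE. Insig1 was 382, 405 and 427, a difference of 1.79, and Acat2 was 735, 749 and 763, a difference of 1.58. These 3 genes had little spread in WT GE. Me1 was 334, 394 and 401 in WT GE, a difference of 1.49 (limma adjusted p = 0.0157). Its p exceeded 0.05 without WT LE replicate 3, WT GE replicate 2 or WT GE replicate 3 (adjusted p = 0.0536, 0.0529 and 0.0556), in edgeR (0.0509) and in DESeq2 (0.134).

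In E-OEX all 9 members (100%) had their higher mean in LE, where 36.1% of the 4903 listed genes did. The epithelial markers (3 of 7 listed) were also lower in GE, with a median log2 difference of -1.35. They summed to between 39166 and 56941 in E-OEX LE and between 15696 and 20910 in E-OEX GE. The part of epithelial content in the members' differences was not tested. In limma 6 of the 9 passed (Pmvk, Mvd, Srebf2, Elovl6, Scd1 and Scd2), where 91.6% of the listed genes passed (61.5% higher in GE, 30.1% lower), and Sqle, Cyp51 and Msmo1 did not. The groups did not overlap for 4 of 9 members and for 89.9% of the listed genes. edgeR and DESeq2 each called all 9, and over all alternatives between 3224 and 4491 listed genes were called. Srebf2 was 2248, 1318 and 1179 in E-OEX GE, a log2 difference of -1.10, and Elovl6 was 497, 149 and 187, a difference of -1.70. Cyp51 was 898, 533 and 456 (-0.95, limma adjusted p = 0.117), and Msmo1 was 320.5, 197 and 169 (-1.04, adjusted p = 0.0844). In each of these 4 genes E-OEX GE replicate 1 was the highest gland library.

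The extreme values of the E-OEX members often came from the same library. E-OEX LE replicate 3 was the lowest of the 3 for 7 of 9 members (40.5% of all genes), the exceptions being Pmvk and Scd2, for which it was the highest. E-OEX GE replicate 1 was the highest for 7 of 9 (31.6% of all genes). Without E-OEX LE replicate 3 Sqle, Cyp51 and Msmo1 passed as well (limma adjusted p = 0.0162, 0.0180 and 0.0111), and all 9 members were called. The count was 2 without E-OEX LE replicate 2, E-OEX GE replicate 2 or E-OEX GE replicate 3, 3 without E-OEX LE replicate 1 and still 6 without E-OEX GE replicate 1.

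**Figure D3:**
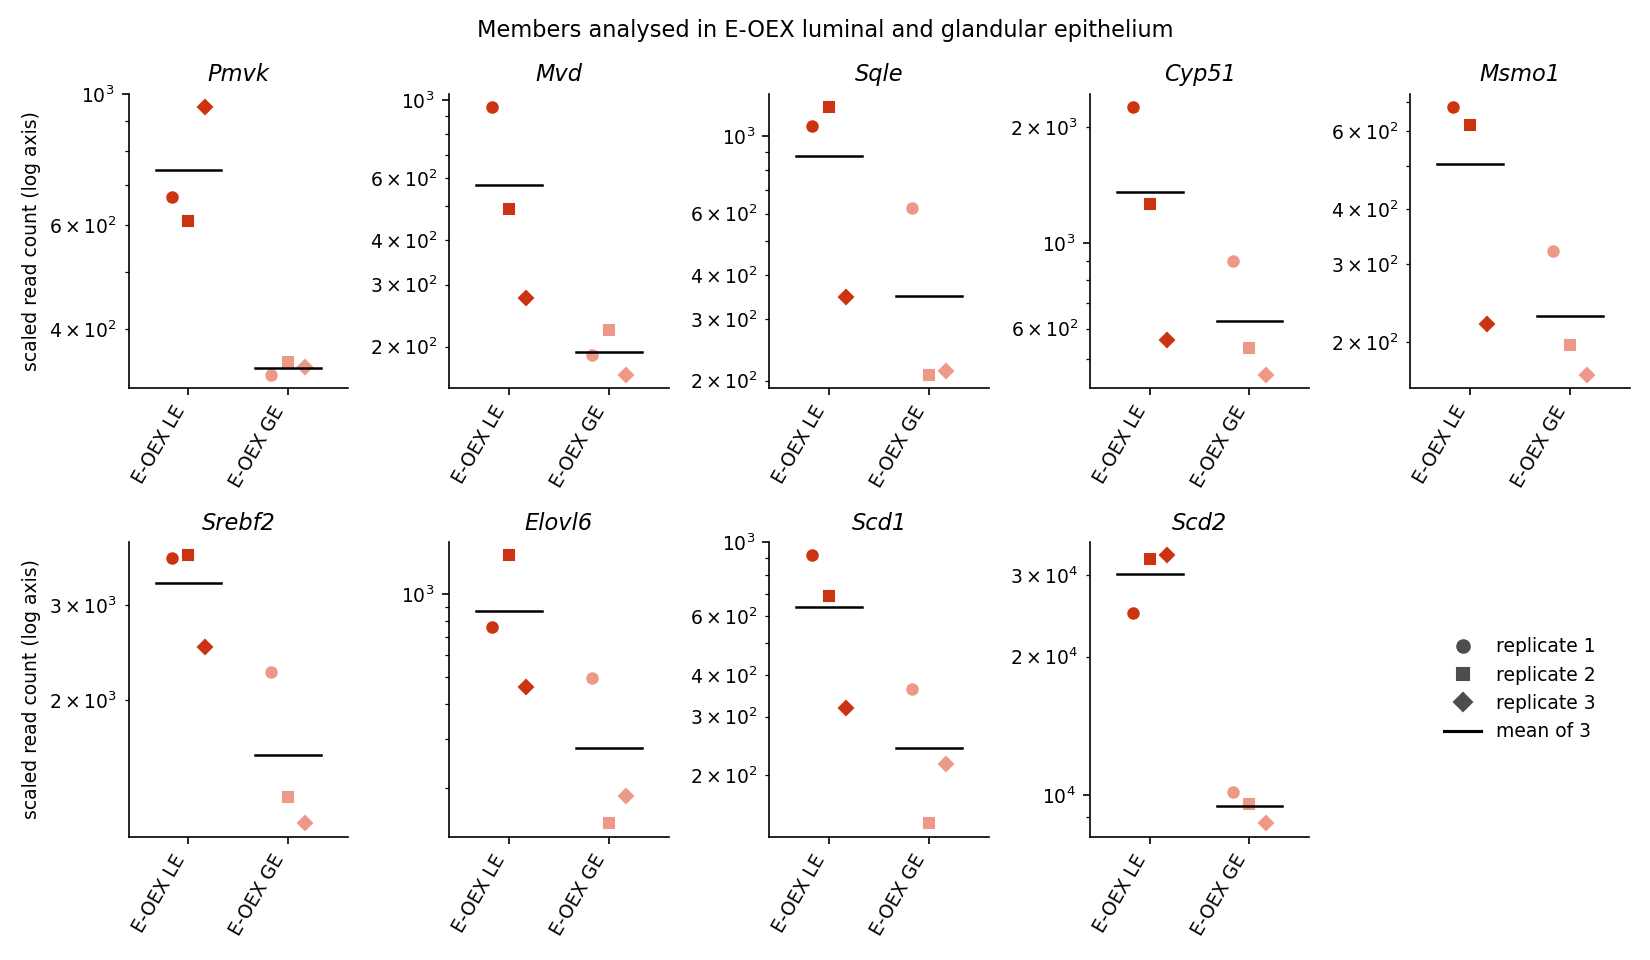
Scaled read counts as deposited (log axes) of the 9 members analysed in E-OEX, by epithelium; symbols give the replicate, bars the mean of 3. The LE mean is above the GE mean in all 9 panels, LE replicate 3 (diamond) is the lowest LE library except for Pmvk and Scd2, and GE replicate 1 (circle) is the highest GE library in 7.

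All 30 members had reads in U-OEx LE, where levels were compared between genes as scaled reads per kilobase of annotated exon. The exons of all annotated transcripts of a gene were joined for this length, which can exceed that of the transcript expressed, so a gene's place depends on its annotation. The median was 33.1 over the 22656 genes with a mean scaled count of at least 1 and annotated exons. Of these members 24 lay above it, and 10 lay at a percentile of 76.2 or above among those genes. The order of members ran from Scd2 at 3620 ± 701 (SD, n = 3), through Fasn at 801 ± 119, Mvd at 759 ± 176, Srebf1 at 446 ± 5.37 and Acly at 431 ± 67.8, down to Scd1 at 19.9 ± 3.31 and Idi1 at 18.7 ± 4.86. The libraries of neighbouring genes overlapped in 23 of the 29 neighbouring pairs, among them Fasn with Mvd and Scd1 with Idi1. Scd2 stood apart from Fasn in every library, and the paired desaturases Scd2 and Scd1 lay near opposite ends of the order.

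**Figure D4:**
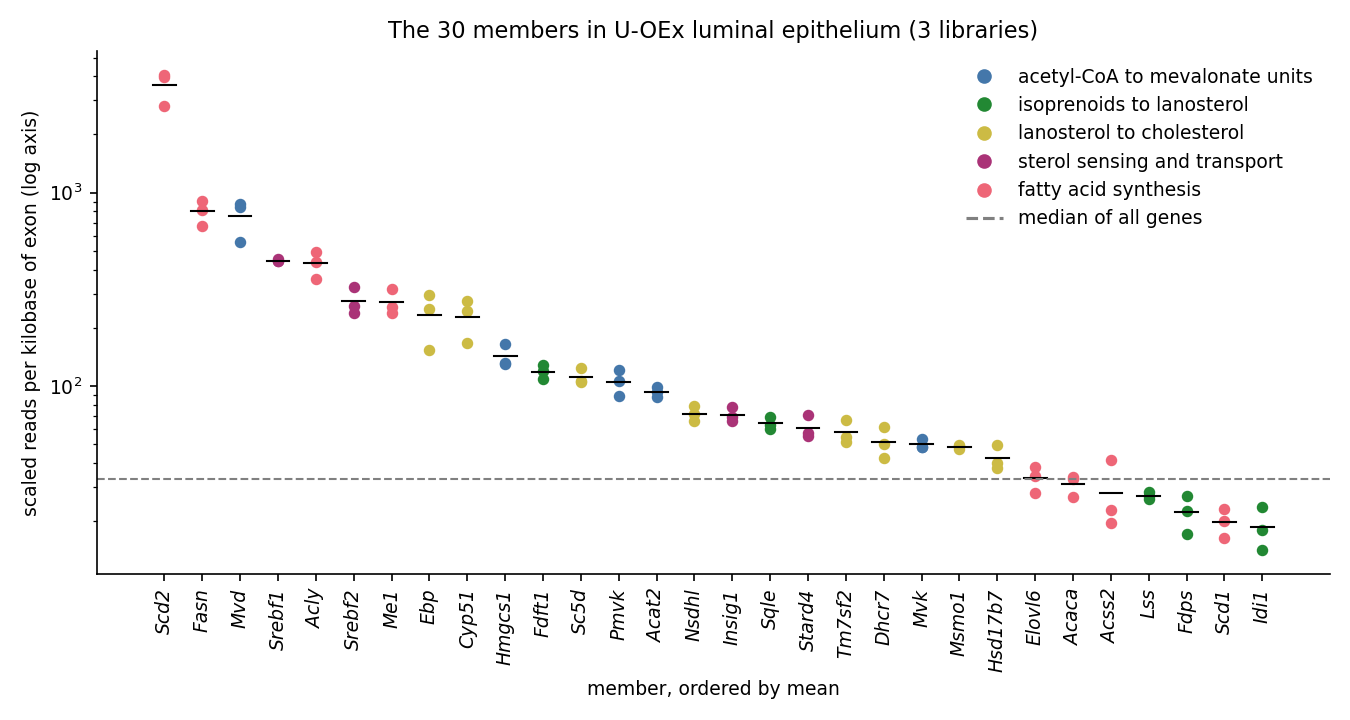
Scaled reads per kilobase of exon (log axis) of the 30 members in the 3 U-OEx LE libraries, ordered by mean. Points are libraries, bars means and colours roles in the pathway. The dashed line is the median (33.1) of all genes with a mean scaled count of at least 1 and annotated exons. Fatty acid genes take both the highest places (Scd2, Fasn) and some of the lowest (Acss2, Scd1).

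By role, the 5 mevalonate genes in U-OEx LE spread from Mvk (50.1 per kilobase), the kinase of mevalonate, to Mvd. Hmgcs1 (ENSMUSG00000093930), which makes HMG-CoA and whose promoter is shown above, had scaled counts of 606, 597 and 759.7, or 142 per kilobase. Of the steps from isopentenyl diphosphate to lanosterol, Fdft1 (squalene synthase) was highest at 119 per kilobase, followed by Sqle at 64.1, the cyclase Lss at 27.2, the synthase Fdps at 22.3 and the isomerase Idi1. Lss, Fdps and Idi1 had the lowest per-kilobase levels of the sterol genes. For Lss the joined exons came to 10787 bases. Its scaled counts of 305, 291 and 282 lay near those of Msmo1 (302, 290 and 303, over 6144 bases).

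The 8 genes after lanosterol ranged per kilobase from Hsd17b7 (42.5), a ketone reductase, to the isomerase Ebp (233), with Cyp51 at 229, the desaturase Sc5d at 112, the dehydrogenase Nsdhl at 72.0, the reductase Tm7sf2 at 57.7, Dhcr7 at 51.4 and Msmo1 at 48.6. Srebf1 (ENSMUSG00000020538), whose protein chiefly drives fatty acid genes, had counts of 2502, 2491 and 2548, with little spread. Srebf2 was at 275 per kilobase, Insig1 at 71.2 and Stard4, a carrier that moves cholesterol between membranes, at 61.1. Of the enzymes that supply acetyl-CoA, the citrate lyase Acly was at 431 per kilobase and the acetate enzyme Acss2 at 28.0, with Acss2 counts of 232, 424 and 199. Replicate 1 was the highest library for 17 of the 30 members (31.7% of all genes) and replicate 3 the lowest for 18 (34.6%).

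Some of these genes share exons with neighbours, and whether the counting used strand is not given in the sources used here. The shared part was 26.7% of the exon bases of Fdps (with Gm43738), 18.3% of Fdft1 (with Ctsb), 12.1% each of Hmgcs1 and Tm7sf2 (with Gm48342 and Vps51), 9.2% of Idi1 (with Gm48574), 9.1% of Acss2 (with Ggt7, Acss2os and Gss), 3.8% of Cyp51 (with Akap9) and 0% of Pmvk, Mvd, Sqle and Dhcr7. How reads common to the related desaturase genes were assigned is also not given.

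Other genes of the pathway came from lists chosen by role. Their counts stand beside the share of all genes tested that passed. That share was 10.7% in E-OEX LE and 23.5% in E-OEX GE, each against WT, and 15% in U-OEx LE against E-OEX LE. In U-OEx LE against WT LE it was 56.9%. Of 6 other sterol synthesis genes, 2 were tested in U-OEx LE against WT LE, with 1 higher and 1 lower. Cyb5r3, the reductase that passes electrons to the desaturases and to sterol oxidation, fell in U-OEx LE against WT LE by 3.48 (SE 0.29, limma adjusted p = 4.44e-05), from 30973.6, 17919.8 and 24801 to 2284, 2592 and 1757. It was not analysed in E-OEX.

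Among 25 genes of cholesterol uptake, storage and efflux, 6 were tested in E-OEX LE against WT LE, with 1 higher and 1 lower. Scarb1, the HDL receptor, rose by 2.55 (SE 0.64, limma adjusted p = 0.0339), from 52.8, 89.1 and 33.5 to 407, 718 and 164. Soat1, which esterifies cholesterol for storage, fell by 1.90 (SE 0.41, adjusted p = 0.0199), from 2805, 3199 and 3877 to 1524, 770.2 and 816. The median of the 6 was 0.89 on the log2 scale. In E-OEX GE Soat1 alone passed (-2.20, SE 0.25, adjusted p = 0.000254), and the median was 0.41.

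In U-OEx LE against WT LE 15 genes of that list were tested, with 4 higher and 6 lower and a median of 0.57. Of all genes tested there, 56.9% passed (29.1% higher, 27.8% lower). Scarb1 rose by 3.02 (SE 0.38, limma adjusted p = 0.000327), to 469.6, 448 and 442. Cyp7b1 (64.3, 72.0 and 50.9) also passed as higher, but WT LE held 3 reads or fewer of it in every library. Vldlr, a lipoprotein receptor, fell by 4.0 (SE 0.59, adjusted p = 0.000681), and Npc1, which exports cholesterol from lysosomes, fell by 2.58 (SE 0.19, adjusted p = 2.28e-05). Lipa, which frees that cholesterol from its esters, fell by 2.11 (SE 0.27, adjusted p = 0.000344). Between U-OEx LE and E-OEX LE 9 were tested, with 3 higher in U-OEx LE, among them Soat2 (3.44, SE 0.87, adjusted p = 0.0337) and Soat1 (1.09, SE 0.31, adjusted p = 0.0481), and 0 lower. In that comparison edgeR called 0 of the list (3 higher and 1 lower at an unadjusted p under 0.05), and DESeq2 called 3 higher and 1 lower.

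Among 25 other fatty acid synthesis genes, 9 were tested in E-OEX LE with 1 higher, Acsl1, an acyl-CoA synthetase (2.50, SE 0.55, limma adjusted p = 0.0202). The same 9 were tested in E-OEX GE, with 0 higher and 4 lower, among them Acsl4 (-1.73, SE 0.21, adjusted p = 0.000361), the lipogenic factor Thrsp (-1.61, SE 0.24, adjusted p = 0.00146) and the desaturase Fads2 (-1.15, SE 0.35, adjusted p = 0.0395). Their medians were -0.11 in LE and -0.89 in GE. In U-OEx LE against WT LE 12 were tested, with 4 higher and 6 lower and a median of -0.57, where 56.9% of all genes tested passed.

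Thrsp had the largest fall of that list in U-OEx LE, from 10110.1, 2219 and 5169 to 55.1, 73.8 and 42.3, a difference of -6.45 on the log2 scale (SE 0.55, adjusted p = 4.99e-05 in limma). Acsl4 fell by 4.04 (SE 0.32, adjusted p = 3.16e-05) and Fads2 by 2.50 (SE 0.52, adjusted p = 0.00406), whereas Acsl1 rose by 3.80 (SE 0.48, adjusted p = 0.000325) and Acacb, the mitochondrial relative of Acaca, rose by 2.33 (SE 0.57, adjusted p = 0.00887). Hacd1, of the elongation cycle, was at 9.19, 14.2 and 23.1 in U-OEx LE and at 4.14, 4.10 and 0 in WT LE. Acaca and Acacb thus differed in opposite directions in U-OEx LE. Of the 12 sensing genes, 2 were tested in U-OEx LE against WT LE, with 1 higher and 1 lower. Nr1h3, the oxysterol receptor LXR alpha, rose by 2.11 (SE 0.36, limma adjusted p = 0.0016), from 17.6, 24.6 and 22.4 to 115, 92.4 and 84.5. Fbxw7, a ubiquitin ligase subunit that marks SREBP for degradation, fell by 0.65 (SE 0.22, limma adjusted p = 0.0365). The call of Fbxw7 did not hold in edgeR, which called 1 of these genes higher and 0 lower. Nr1h3 was the only sensing gene tested in E-OEX LE and in E-OEX GE and passed in neither.

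Between U-OEx LE and E-OEX LE 10 of the other fatty acid synthesis genes were tested, with 1 higher, Hacd1, and 5 lower and a median of -1.25. Of all genes tested there, 15% passed (6.97% higher, 8.05% lower). For this list edgeR called 0 higher and 5 lower, so the call of Hacd1 did not hold there, and DESeq2 called 1 higher and 6 lower. Thrsp fell by 5.03 (SE 0.61, limma adjusted p = 0.00419), Fads2 fell by 2.77 (SE 0.43, adjusted p = 0.00739) and Acsl4 fell by 2.45 (SE 0.51, adjusted p = 0.018). The desaturase Scd1 and the elongase Elovl6, described above, were lower in the same comparison.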

How the data were processed

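RNA sequencing of 15 libraries was analysed from the tables deposited by the authors, whose values are signal values: whole reads per gene divided by 1 factor per library, as the values themselves show (every value came out whole within 0.01). The build was GRCm38 (mm10), per the submitters' processing notes; the aligner, the counting, its use of strand and the scaling method are not given in the sources used here. Reads were recovered from the values; genes shared by 2 genotypes were rescaled with edgeR 4.0.16 (TMM) for comparisons between genotypes. The main test was limma 3.58.1 (R 4.3.3, mean-variance trend) on log2(value + 1), with genes of mean 1 or more, all genes adjusted together by Benjamini-Hochberg, threshold 0.05. The main fit of each comparison was tested on simulated data, and the alternatives were not. The alternatives were a pseudocount of 0.1, no filter, a minimum mean of 10, edgeR's quasi-likelihood test, DESeq2 1.42.0 and its size factors, quantile normalization, the deposited scale, TMM within genotypes, a replicate block, 1 fit over all 5 groups, and leaving out each library. Nothing says that libraries of a group come from separate animals, so p-values measure only the spread between these samples, which may be technical. Values in every library are given for members that passed between genotypes or in the interaction and for key steps, and up to 3 genes per direction are named from each pathway list by size of change. The members and lists were chosen with earlier results of these data known. Promoters and gene positions came from RefSeq (GRCm38.p6) and GENCODE annotation; protein sequences were not used here.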

Additional observations from a re-analysis of the deposited data

Results flagged for a closer look

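For 3 members the difference between E-OEX and WT passed a test of unequal size in the glands and in the lumen (limma, interaction of genotype and epithelium, 3 libraries in each of 4 groups). The interaction was -2.52 on the log2 scale for Mvd (SE 0.60, adjusted p = 0.0166) and -2.78 for Sqle (SE 0.76, adjusted p = 0.0339), so that GE minus LE was lower in E-OEX than in WT for both. For Pmvk it was 2.77 (SE 0.68, adjusted p = 0.0206), with GE minus LE less negative in E-OEX. Both tables list genes by their GE against LE difference, so for Mvd and Sqle, whose direction differed between the genotypes, an interaction of about 2 or more follows from the selection. The report gives the libraries without which each of these calls was lost.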

How the results depend on the processing

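Over 850 repeats of a member's value under an alternative, 738 kept direction and side of the threshold, 72 lost the call, 24 gained one and 16 changed sign, the last all for members that had not passed. With no filter on low values, 105 genes and 1 member were called between E-OEX LE and WT LE, and 286 genes between U-OEx LE and E-OEX LE. DESeq2 called 453 genes between E-OEX LE and WT LE and 501 in the interaction. In 1 fit over all 5 groups, which tests only genes listed in every table, 616 genes were called for E-OEX LE, 285 for E-OEX GE with 0 members, and 1274 with 4 members for U-OEx LE against WT LE. On the deposited scale 0 members were called in E-OEX GE.

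Leaving out 1 library at a time, the counts for E-OEX LE against WT LE ran from 56 to 322 genes and from 1 to 3 members. For E-OEX GE they ran from 362 to 728 genes and from 0 to 1 member, and for U-OEx LE against E-OEX LE from 60 to 904 genes and from 0 to 5 members. Within E-OEX 2 to 9 members were called, and the interaction called 179 to 449 genes and 0 to 3 members. Where a group was left with 2 libraries, the spread was pooled over the fit.

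Signs changed as follows. Scd2 in E-OEX LE was -0.00927 with edgeR and lay between -0.32 and 0.40 with 1 library left out, and Scd1 there lay between -0.56 and 0.29. In E-OEX GE, Scd1 was -0.0114 with quantile normalization and lay between -0.39 and 0.33 with 1 library left out, and Pmvk was 0.30 on the deposited scale and lay between -0.34 and 0.25. In U-OEx LE against WT LE, quantile normalization gave 0.66 for Fasn and 0.88 for Scd2, and Acat2 lay between -0.22 and 0.0912. Cyp51 in U-OEx LE against E-OEX LE lay between -0.89 and 0.0161, and the interaction of Scd2 between -0.57 and 0.0238, while quantile normalization moved it to -1.91 (adjusted p = 0.0306, limma). The cause of these changes was not tested.

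Libraries with the same number shared only a number: in no comparison did every pair correlate over 0.1, and 1 or 2 of 3 libraries correlated best with their own number. With the replicate block, 292 genes were called in place of 277 for E-OEX LE, 718 for 670 in E-OEX GE, 3182 for 3384 in U-OEx LE against WT LE and 612 for 642 against E-OEX LE. Among members, the block moved Insig1 in U-OEx LE to an adjusted p of 0.0711 (limma) and Sqle in E-OEX GE against LE to 0.0346. Depth limits low genes such as Cyp7b1, with at most 3 reads in a WT LE library, and the WT and E-OEX tables limit the members that could be tested.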

Other observations

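Of 25 genes listed for fatty acid oxidation, ketone bodies and their control, 10 were tested in U-OEx LE against WT LE, with 3 higher, among them Pdk4 and Bdh1, and 1 lower, Acaa1a, where 56.9% of all genes tested passed. Their median log2 fold change was 1.07, beside 0.09 over all genes. Bdh1, a ketone body dehydrogenase, was 21.8, 12.3 and 20.1 in WT LE and 209.5, 206 and 171 in U-OEx LE, an increase of 3.38 (SE 0.39, limma adjusted p = 0.000198). It was also higher in E-OEX LE, at 287, 241 and 243 (3.62, SE 0.53, adjusted p = 0.0043), and lower in E-OEX GE than in WT GE (-1.23, SE 0.36, adjusted p = 0.0351). Pdk4, a kinase that restrains glucose oxidation, was 40.9, 56.9 and 29.4 in WT GE and 838, 583 and 476 in E-OEX GE (3.42, SE 0.36, adjusted p = 0.000182). In E-OEX GE 7 of the list were tested, with 1 higher and 2 lower, where 23.5% of all genes tested passed.

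Of 19 triglyceride and droplet genes, 7 were tested in U-OEx LE against WT LE, with 1 higher and 1 lower, where 56.9% of all genes tested passed. Fabp5, a fatty acid carrier, rose from 41.4, 21.5 and 27.9 to 1324, 949.97 and 1075 (5.17, SE 0.36, limma adjusted p = 1.94e-05). Mogat1, an acyltransferase of triglyceride synthesis, fell by 4.19 (SE 0.89, adjusted p = 0.00459). In E-OEX GE 3 were tested with 0 higher and 2 lower, Cd36 (-2.14, SE 0.61, adjusted p = 0.0298) and Mogat2 (-1.15, SE 0.35, adjusted p = 0.0383). There 23.5% of all genes tested passed.

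Of 8 genes of NADPH supply, 2 were tested, the malic enzymes Me2 and Me3. Me3 was 419.5, 1131 and 853 in WT LE and 168, 139 and 157 in E-OEX LE (-2.43, SE 0.46, limma adjusted p = 0.0133), and was also lower in U-OEx LE than in WT LE (-1.60, SE 0.39, adjusted p = 0.00839), where the cytosolic Me1 was higher. Me2 was lower in U-OEx LE than in E-OEX LE (-2.64, SE 0.44, adjusted p = 0.00959) and higher in E-OEX GE than in WT GE (1.57, SE 0.42, adjusted p = 0.0247).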
